A study of Rattus norvegicus with 6 samples.

Results

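The genes described here are 10 early response genes of growth factor and mechanical signalling, measured in the livers of male rats given a flame retardant or its vehicle: Dusp1, Dusp5, Dusp6, Spry2, Spry4, Errfi1, Zfp36, Ccn1, Ccn2 and Myc. They were chosen by name, with every array probe whose RefSeq transcript maps to one of these symbols, and with the differences between the groups in these same animals already known. Those differences are therefore given as a description, without a test. All 10 genes were found, on 14 probes, among 27642 genes measured on the arrays. Of these 27642, 10982 carry a gene symbol and the others the name of the array design, so 1 gene may be counted more than once. Shares of all genes below include both kinds. The animals were Sprague-Dawley (Crl:CD(SD)) males bought at 5 weeks of age. Corn oil, the vehicle, was given to 3 of them, and the other 3 were dosed daily with TCEP, which stands for Tris(2-Chloroethyl) Phosphate, at 400 mg/kg/day. TCEP is an organophosphate with chlorine-bearing side chains, used against fire in foams and plastics. Dosing lasted 9 weeks by the treatment protocol and the livers were measured at 28 days by the design text, and these statements cannot both hold. Each liver was hybridised to 1 array of a single colour.

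Growth factor receptors signal through RAS and the kinases RAF, MEK and ERK, a cascade of the MAPK family, and ERK switches on genes within minutes of a stimulus. Several of these early genes encode brakes on the same cascade: the dual-specificity phosphatases (Dusp) remove the phosphates that activate MAP kinases, Sprouty proteins (Spry) act between the receptor and RAF, and Errfi1 binds the EGF receptor and blocks its kinase. YAP, the effector of the Hippo pathway, works with TEAD proteins on DNA and is known for inducing the matrix proteins Ccn1 and Ccn2. In liver these pathways are best known for regeneration after tissue loss and for control of organ size.

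The promoters of 4 members are shown because they hold the letters of the response elements for which these genes are known. The sequences are the 250 bases before the RefSeq gene start in rat assembly GRCr8, 5′ to 3′ on the gene's strand. Capitals mark matches, on either strand, to GGAATG (TEAD) in Ccn1 and Ccn2, to TGACGTCA (the cyclic AMP response element, CRE) in Dusp1, and to the CArG box of serum response factor in Dusp5. Ccn1 lies at chr2:237225690-237225939 (minus strand), Ccn2 at chr1:22624615-22624864 (minus strand), Dusp1 at chr10:17184603-17184852 (plus strand) and Dusp5 at chr1:262543524-262543773 (plus strand).
Ccn1: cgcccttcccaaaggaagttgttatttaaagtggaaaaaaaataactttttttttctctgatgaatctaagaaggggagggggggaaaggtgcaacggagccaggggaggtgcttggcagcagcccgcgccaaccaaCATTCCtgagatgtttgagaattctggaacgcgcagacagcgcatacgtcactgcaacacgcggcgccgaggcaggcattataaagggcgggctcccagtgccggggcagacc
Ccn2: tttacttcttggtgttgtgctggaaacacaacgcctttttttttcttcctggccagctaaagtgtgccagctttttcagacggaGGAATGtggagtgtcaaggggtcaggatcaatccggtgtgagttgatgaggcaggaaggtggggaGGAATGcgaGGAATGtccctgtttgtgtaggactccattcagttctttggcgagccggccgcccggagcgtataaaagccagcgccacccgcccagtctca
Dusp1: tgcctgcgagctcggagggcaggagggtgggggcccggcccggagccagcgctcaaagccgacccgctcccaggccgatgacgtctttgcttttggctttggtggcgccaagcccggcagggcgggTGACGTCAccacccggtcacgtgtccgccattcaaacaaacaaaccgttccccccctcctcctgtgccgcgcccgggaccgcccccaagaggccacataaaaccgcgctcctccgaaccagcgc
Dusp5: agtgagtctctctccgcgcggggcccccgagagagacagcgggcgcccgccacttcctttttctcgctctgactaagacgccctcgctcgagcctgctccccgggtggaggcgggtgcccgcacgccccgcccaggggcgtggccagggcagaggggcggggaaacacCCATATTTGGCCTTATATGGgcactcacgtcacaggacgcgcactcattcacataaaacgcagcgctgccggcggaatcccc

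The Ccn2 promoter held 3 TEAD matches and that of Ccn1 held 1. Windows of the same kind were found for 9 of the 10 members (10 windows, 2 of them for Spry2), and not for Myc. The TEAD letters were in 2 of these 10 windows and in 12.1% of the 33465 windows of all genes. A CRE was in 1 window, against 1.59% of all. CArG boxes were in 2 windows, against 1.5% of all: 2 adjacent boxes in Dusp5 and 1 in Zfp36 (CCATAAAAGG). The 3 motifs do not overlap each other in these windows. A match describes the letters only.

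Signals are given below as log2 of the processed signal relative to the 75th percentile of each array. Where a gene has several probes, the brightest on average represents it. That probe exceeded background clearly in all 6 livers for each of the 10 members. Of the 14 probes, 13 passed the filter on dim signals. The exception was 1 of the 3 Spry4 probes, well above background on 1 array. Between 57.2% and 64.4% of probes per array were well above background, and the median standard error of a log2 difference was 0.145 over all genes, with precision limited by 3 arrays per group. Hepatocyte identity was clear: all 8 hepatocyte markers, albumin among them, were measured, with a summed linear signal of 3930 to 3995 in corn oil and 3609 to 3964 in TCEP. All 3 TCEP arrays were on 1 slide, and corn oil replicates 1 and 3 on another. Corn oil replicate 2 was on a further slide, scanned 23 days later. Slide and treatment cannot be told apart.

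Across the array 0% of genes (0 of 27642) passed an adjusted p of 0.05 in limma, members included, and 2543 (9.2%) had an unadjusted p under 0.05. Of the 10 members, 8 had a lower mean in TCEP, a direction found in 49.1% of all genes. Their median log2 difference was -0.41, against 0.00 for all genes. The groups overlapped in all 10 members, while they lay apart in 17.4% of all genes, with TCEP lower in 7.06% and higher in 10.3%. Only Ccn1 differed by 2-fold or more between the means, a decrease of a size found in 0.488% of all genes. The median of the members rested on single livers: it was -0.09 without corn oil replicate 1, -0.14 without TCEP replicate 3 and -0.15 without corn oil replicate 3.

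Ccn1 encodes a secreted matrix protein that binds integrins. Its brightest probe read 0.86, -0.29 and 0.50 in corn oil replicates 1 to 3 and -0.23, -0.77 and -1.09 in the TCEP replicates. Corn oil replicate 2, the array scanned later, lay just below TCEP replicate 1, and otherwise the groups were separate. The mean was 2.08-fold lower in TCEP (log2 difference -1.05 ± 0.35, SE). The other 2 Ccn1 probes gave a mean 1.99-fold and 2.23-fold lower, and on both the groups did not overlap, as was the case for TCEP below corn oil on 6.89% of all probes kept. On the 1.99-fold probe the lowest corn oil value was -0.99 and the highest TCEP value -1.03. On the 2.23-fold probe they were -3.11 and -3.36. Leaving out each array in turn kept the difference of the brightest probe between -1.38 and -0.80.

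Ccn2, the relative of Ccn1 and a standard readout of YAP, showed no such separation of the groups. Its 1 probe read -1.88, -2.60 and -1.50 in corn oil and -1.69, -1.45 and -3.24 in TCEP. The probe was dim, with a mean signal at percentile 33.0 of all genes, below Spry4 at 35.3. The highest and the lowest of the 6 livers were both TCEP livers, and as in Ccn1 the lowest was TCEP replicate 3. The log2 difference was -0.14 ± 0.52 (SE), and it was 0.42 without TCEP replicate 3 and 0.11 without corn oil replicate 3. In the plot of the CCN probes the Ccn1 probes step down together while Ccn2 spreads within TCEP. Whether the differences of Ccn1 and Ccn2 are unlike was not tested.

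**Figure D1:**
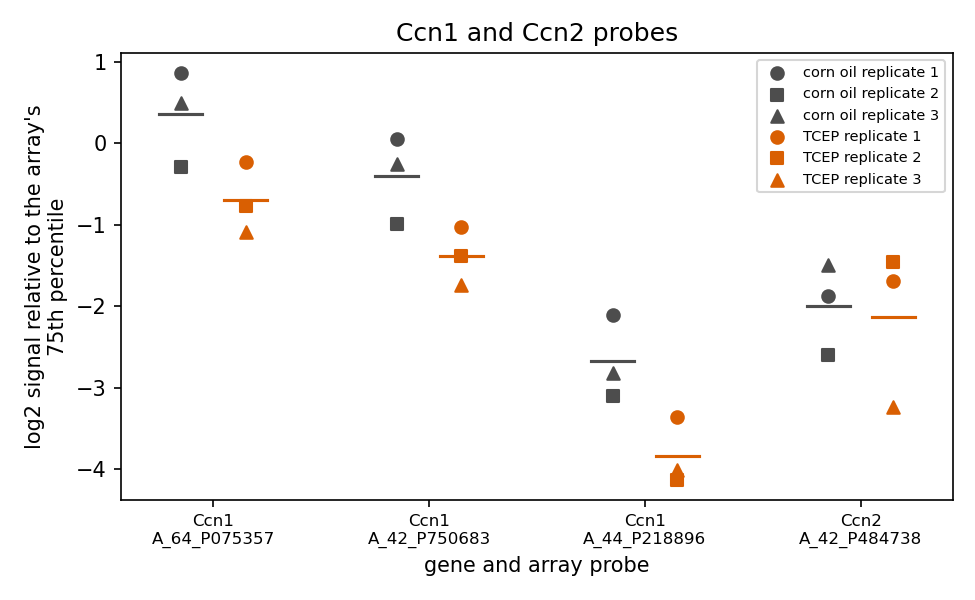
Log2 signal relative to the 75th percentile of the array (vertical axis) for the 3 probes of Ccn1 and the probe of Ccn2 (horizontal axis). Each point is 1 liver, grey for corn oil and orange for TCEP, and bars are means of 3 livers. On all 3 Ccn1 probes the TCEP mean is lower, by 1.99-fold to 2.23-fold, and in Ccn2 TCEP replicate 3 is the lowest point at -3.24.

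Among the MAP kinase phosphatases, Dusp1, a nuclear enzyme that acts on p38 and JNK as well as ERK, read 0.85, -0.69 and -1.19 in corn oil and -0.53, -1.16 and -1.35 in TCEP. A single vehicle liver, corn oil replicate 1, stood above the other 5. The mean was 1.59-fold lower in TCEP (log2 difference -0.67 ± 0.54, SE), and on the log2 scale -0.07 without that liver and -1.09 without corn oil replicate 3. Zfp36, which binds AU-rich mRNAs such as that of Tnf and speeds their decay, also peaked in corn oil replicate 1. It read -0.14, -1.29 and -1.38 in corn oil and -1.11, -0.90 and -2.30 in TCEP. Its log2 difference of -0.50 ± 0.48 (SE) became -0.07 without TCEP replicate 3 and -0.10 without corn oil replicate 1. The early transcription factor gene Fos had the same high liver, at -1.60 in corn oil replicate 1 against -4.59 to -3.97 in the other 5, as did the nuclear receptor Nr4a1, at -0.64 against -2.02 to -1.22. Fos and Nr4a1 were singled out after their values were seen. Corn oil replicate 1 was the highest array in 5 of the 24 measured immediate early genes, a share near the 19.1% of all genes, while Junb, Ier2 and Egr1 peaked in corn oil replicate 3.

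Dusp5, a nuclear phosphatase specific for ERK, read 1.62, 2.43 and 2.32 in corn oil and 1.57, 1.40 and 2.33 in TCEP. Dusp6, its cytoplasmic counterpart, read 3.67, 4.71 and 4.69 in corn oil and 4.62, 4.10 and 5.25 in TCEP. In both genes the highest 3 livers were corn oil replicates 2 and 3 and TCEP replicate 3, whatever their order, as in 4.41% of all genes. The groups overlapped, with log2 differences of -0.36 ± 0.32 for Dusp5 and 0.30 ± 0.39 for Dusp6 (SE), and the latter was -0.04 without corn oil replicate 1. The Dusp5 difference was -0.17 without TCEP replicate 2, -0.20 without corn oil replicate 2, -0.61 without corn oil replicate 1 and -0.64 without TCEP replicate 3. Of 8 macrophage markers, 6 had the same highest 3 livers. All 8 were lowest in corn oil replicate 1, as were Dusp6 and 15.2% of all genes, whereas Dusp5 was lowest in TCEP replicate 2. Their summed linear signal ran from 48.8 to 116 in corn oil and from 68.3 to 81.3 in TCEP, and none of the 8 was below background. Their part in the Dusp5 and Dusp6 values was not tested. In liver pieces, fewer cells of a type and less RNA per cell cannot be told apart.

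The Sprouty genes were dim. Spry2 read -3.89, -3.19 and -3.06 in corn oil and -3.24, -3.95 and -4.34 in TCEP, values that interleave. Its log2 difference was -0.47 ± 0.34 (SE), -0.22 without TCEP replicate 3 and -0.16 with normexp background correction. Spry4 read -2.15, -2.00 and -0.72 in corn oil and -2.19, -1.84 and -2.33 in TCEP, so that corn oil replicate 3 alone stood high. The log2 difference of this probe was -0.50 ± 0.39 (SE), and -0.04 without corn oil replicate 3. A second Spry4 probe, also above background on all 6 arrays, did not show the high liver: it read -2.37, -2.67 and -2.55 in corn oil and -2.78, -2.53 and -2.33 in TCEP, a log2 difference of -0.02. The Spry4 probes thus disagreed on corn oil replicate 3.

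Errfi1, the feedback inhibitor of the EGF receptor, varied least between animals. It read 7.96, 7.79 and 8.04 in corn oil and 7.91, 8.13 and 7.45 in TCEP. The log2 difference was -0.10 ± 0.19 (SE), and 0.09 without TCEP replicate 3. Myc, the transcription factor that drives ribosome production and growth, had the larger of the 2 higher means. It read 1.21, 1.74 and 1.08 in corn oil and 2.47, 2.12 and 0.91 in TCEP. The 2 highest livers and the lowest one were all TCEP livers. The mean was 1.40-fold higher in TCEP (log2 difference 0.49 ± 0.42, SE), 0.95 on the log2 scale without TCEP replicate 3 and 0.17 without TCEP replicate 1. Without TCEP replicate 3, the liver with the lowest Myc value, the groups did not overlap, with TCEP higher. The share of all genes apart higher in that alternative was not counted, and 10.8% lay apart lower.

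Most members had their lowest value in 1 dosed liver. TCEP replicate 3 was the lowest of the 6 arrays in 8 of the 10 members, all but Dusp5 and Dusp6, and in 16.1% of all genes. In the same 8 members it lay at least 0.5 log2 units below the mean of the other 5 arrays, from -0.51 in Errfi1 and -0.55 in Spry4 to -1.34 in Zfp36 and -1.41 in Ccn2. That distance was reached by 5.54% of all genes. Spry4 is among the 8 by its brightest probe alone, since on the second one TCEP replicate 3 was the highest of the 6 arrays. In Dusp5 and Dusp6 the same liver lay 0.46 and 0.89 above the others. On this array 61.6% of probes were well above background, and it correlated at 0.9915 and 0.9919 with the other TCEP arrays. It was also the highest array in 20.7% of all genes, the largest such share of the 6, and its part in the members' values was not tested. The same array was lowest in 6 of 24 immediate early genes and in 4 of 12 other YAP targets, and whether the members differ from these lists was not tested. Without TCEP replicate 3, 6 of the 10 members had a lower mean in TCEP.

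**Figure D2:**
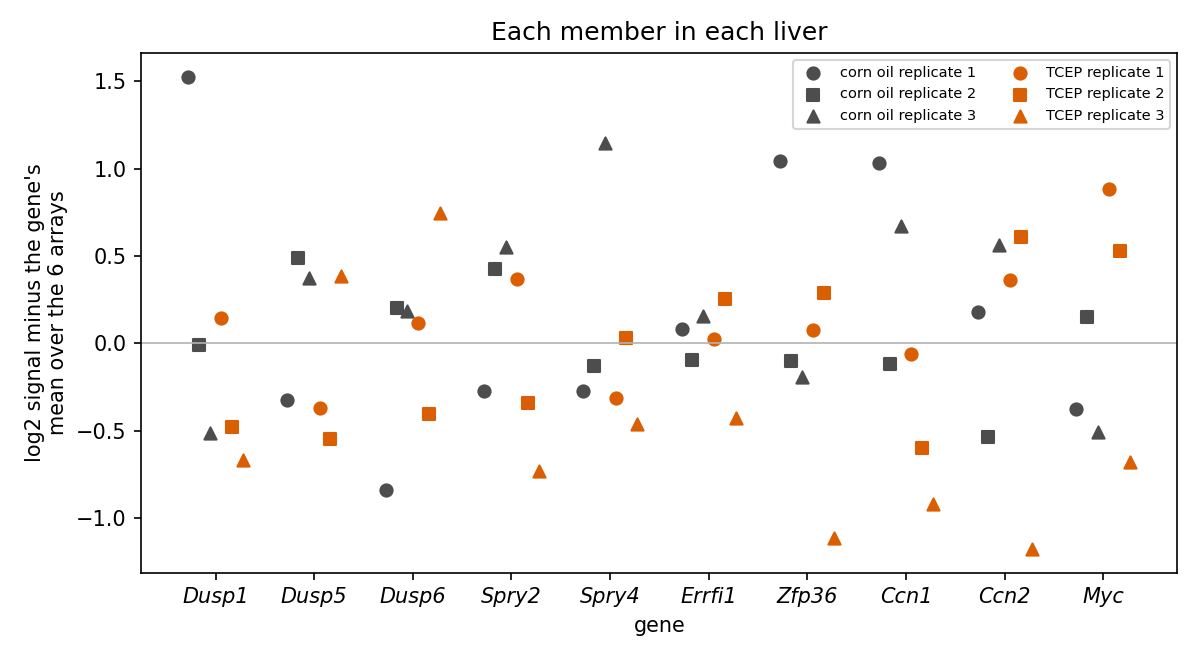
Log2 signal of each member minus its own mean over the 6 arrays (vertical axis), by gene (horizontal axis). Grey points are corn oil and orange points TCEP livers, and shapes give the replicate. The orange triangle, TCEP replicate 3, is the lowest point in 8 of the 10 genes, and corn oil replicate 1 is the highest in Dusp1, Zfp36 and Ccn1.

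The members also varied more between animals of a group than most genes. Their median within-group SD was 0.58 log2 units, against 0.18 for all genes, and 9 of the 10 reached 0.4, as did 14.2% of all genes. Dusp1 had the largest SD, 0.81, and Errfi1 the smallest, 0.26. Over all 6 livers the signal spanned 4.58-fold in Dusp1, 4.46-fold in Zfp36 and 1.60-fold in Errfi1. A range of at least 1 log2 unit was seen in 9 of the 10 and in 16.9% of all genes. In the plot of spread against signal the members lie high at dim and bright signals alike.

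**Figure D3:**
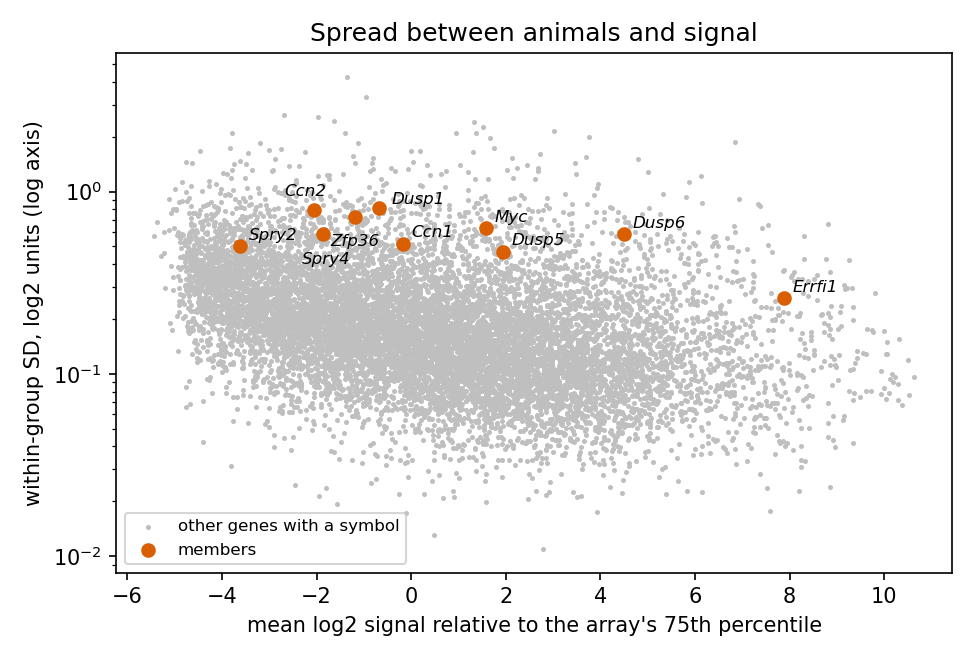
Within-group SD in log2 units (vertical log axis, pooled over corn oil and TCEP) against mean log2 signal relative to the 75th percentile (horizontal axis). Orange points are the 10 members and grey points the other genes with a symbol. The members run from 0.26 (Errfi1) to 0.81 (Dusp1), and the median of all genes is 0.18.

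The other genes of these pathways were read from 11 lists holding 180 genes, of which 136 were measured. In limma 0 of the 136 passed the adjusted threshold in either direction (0% of all genes). At an unadjusted p under 0.05 there were 10 lower and 2 higher. The groups lay apart with TCEP lower in 13 (9.56%, beside 7.06% of all genes) and with TCEP higher in 5 (beside 10.3%).

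The other inhibitors of the cascade that were measured stayed near the median of all genes. Of 14 further MAP kinase phosphatases and Sprouty-type inhibitors listed, 10 were matched to a probe and only 5 were measured. Of these 5, 0 passed, with a median log2 difference of -0.09 (-0.16 to -0.02 over all alternatives). Dusp16 had -0.20 ± 0.19, Dusp8 -0.13 ± 0.11, Spred1 -0.06 ± 0.15 and Dusp4 0.02 ± 0.39 (SE). Upstream, 14 EGF family ligands and growth factor receptors had a median of -0.04 (0.03 without corn oil replicate 2). Their extremes were the FGF receptors Fgfr3 (-0.47 ± 0.29) and Fgfr1 (-0.26 ± 0.16), and Egfr (0.51 ± 0.28) and Erbb3 (0.28 ± 0.10). Erbb3, a partner receptor of the EGF receptor, had groups apart, from -0.75 to -0.55 in corn oil and from -0.46 to -0.30 in TCEP. The RAS to ERK cascade, with 24 genes, had a median of 0.01, its extremes being the phosphatase Ptpn11 (-0.30 ± 0.10), the RAS activator Sos2 (-0.21 ± 0.11), the adaptor Grb2 (0.14 ± 0.11) and the ERK substrate Elk1 (0.19 ± 0.19).

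Among downstream lists, for 9 genes of ERK transcriptional output the median was -0.37, with 7 lower means and 0 groups apart, and it was -0.18 without TCEP replicate 1 and -0.22 without corn oil replicate 2. The cyclin gene Ccnd1 had -0.59 ± 0.38 and Epha4 -0.57 ± 0.85 (SE), while Etv5 and Lif had 0.03 ± 0.27 and 0.04 ± 0.20. Among 24 immediate early genes, which include Ier3 and Egr1 of the previous list, 19 had a lower mean and the median was -0.38 (-0.45 to -0.32 over all alternatives). In 5 of the 24 the TCEP values lay below all corn oil values, and in 0 above, beside 7.06% and 10.3% of all genes. Junb, a subunit of the AP-1 transcription factor, had -1.19 ± 0.12 and read 3.72, 3.74 and 3.93 in corn oil and 2.68, 2.43 and 2.72 in TCEP. It did not pass (limma adjusted p = 0.29). Jun had -1.27 ± 0.53 with overlapping groups, and Nr4a2 and Jund had 0.01 ± 0.18 and 0.07 ± 0.15. In Junb, unlike in 8 of the 10 members, TCEP replicate 3 was the highest of the dosed livers.

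The relatives, kinases and mRNA targets of Zfp36 gave 0 of 11 past the threshold and a median of -0.16 (0.05 without TCEP replicate 2). Cxcl1, a neutrophil-attracting chemokine, had -1.26 ± 0.85 (SE), with corn oil values from -0.65 to 2.90, and Ccl2 had -0.25 ± 0.54. The p38 kinase Mapk14 and its substrate Mapkapk2 had 0.40 ± 0.16 and 0.26 ± 0.21.

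In the Hippo pathway 12 core genes had a median of -0.07, with 3 groups apart and TCEP lower (beside 7.06% of all genes). These were the DNA-binding partners of YAP, Tead2 (-0.48 ± 0.18, SE) and Tead3 (-0.24 ± 0.08), and the kinase cofactor Mob1b (-0.31 ± 0.13). Nf2 and Vgll4 had 0.09 ± 0.09 and 0.45 ± 0.41. Yap1 itself was not measured here. For 12 further YAP targets the median was -0.09, with 9 lower means, 2 groups apart lower and 1 higher (7.06% and 10.3% of all genes). That median was -0.0026 without TCEP replicate 2, -0.16 without corn oil replicate 1 and -0.03 with median centring. Crim1 had -0.36 ± 0.14, Nuak2 -0.34 ± 0.17, Gadd45a 0.09 ± 0.33 and Asap1 0.20 ± 0.10. The other measured CCN genes, Ccn4 and Ccn5, were dim, with differences of 0.16 ± 0.16 and 0.38 ± 0.24. Their median of 0.27 was 0.01 when dim probes were retained and 0.09 with normexp.

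The 2 lists around Myc had median differences near that of all genes. The 7 members of the MYC and MAX network had a median of 0.01, from Mxd1 (-0.21 ± 0.15, SE) and Mlxipl (-0.20 ± 0.13) to Mxi1 (0.14 ± 0.13) and Mnt (0.31 ± 0.25). The 18 MYC targets had a median of 0.03 and 5 lower means. Fbl and Srm had -0.10 ± 0.09 and -0.04 ± 0.09, and Cdk4 and Nop58 0.16 ± 0.11 and 0.19 ± 0.15.

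**Figure D4:**
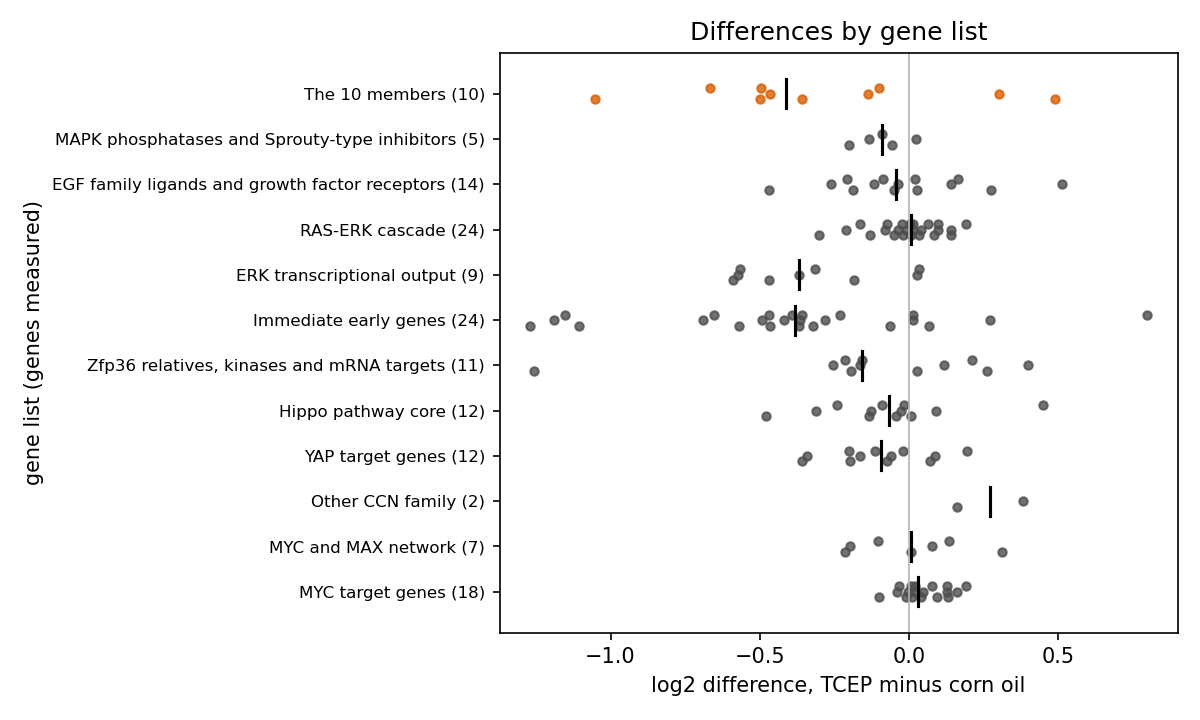
Log2 difference between the TCEP and corn oil means (horizontal axis) for each measured gene, by list (vertical axis, number of genes in brackets). Orange points are the 10 members, grey points other genes, and black bars list medians. The medians run from -0.41 for the members and -0.38 for the immediate early genes to 0.03 for the MYC targets and 0.27 for the 2 other CCN genes.

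Markers of other cell types were read beside these values. The 10 stellate cell markers had a summed linear signal of 37.8 to 41.0 in corn oil and 35.7 to 37.9 in TCEP. In 2 of the 10 TCEP lay apart below, beside 7.06% of all genes. Of 5 measured endothelial markers 0 lay apart (41.2 to 50.4 against 43.3 to 47.4). In 2 of 5 cholangiocyte markers TCEP lay apart above, Epcam (log2 difference 0.52) and Spp1 (1.04), beside 10.3% of all genes. The groups overlapped in Krt19 (0.50), Cftr (0.01) and Krt7 (-0.27). The 5 summed to 1.22 to 1.55 against 1.62 to 2.46, a sum weighted towards Epcam, the brightest of them. The 5 measured T and B cell markers summed to 0.743 to 0.995 against 1.02 to 1.44, with Cd3e not above background. The 2 measured neutrophil markers, S100a8 and S100a9, summed to 0.712 to 5.20 against 1.23 to 2.76, with Csf3r and Cxcr2 not above background. Msln was the only mesothelial marker measured, with 0.246 to 0.481 against 0.196 to 0.520 and Wt1 not above background. TCEP replicate 3 was the lowest array in Msln and in 2 of 8 hepatocyte and 2 of 10 stellate cell markers. It was also lowest in 1 of 5 endothelial and 1 of 5 cholangiocyte markers and in 16.1% of all genes. In the measured macrophage, neutrophil and T and B cell markers it was lowest in 0. The part of these cells in the members' values was not tested.

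The genes most like the members were sought by the correlation of each of 10429 other genes with the mean of the members' centred values over the 6 arrays. That mean profile was 0.18, 0.03 and 0.24 in corn oil and 0.12, -0.07 and -0.50 in TCEP. The 8 most alike were Bpifa5 (Pearson r = 0.991), Ufl1 (0.985), Oas1e (0.985), B4galt6 (0.981), Cdo1 (0.977), Afdn (0.973), Gnmt (0.973) and Or13p4 (0.972), as a description over 6 arrays that share their scaling. TCEP replicate 3 was lowest in each of the 8, which follows from their choice, because the profile itself was lowest in that array. The methyltransferase Gnmt read 7.18, 7.05 and 7.36 in corn oil and 7.17, 7.11 and 6.53 in TCEP. Cdo1, which oxidises cysteine, read 4.27, 4.02 and 4.39 in corn oil and 4.16, 3.96 and 3.60 in TCEP.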

How the data were processed

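Total RNA of 6 rat livers was labelled with Cy3 and hybridised to 1-colour Agilent arrays, as the labels' protocols state. Spots were read by the authors with Feature Extraction, version 10.7.1.1 per the file headers and 10.7 per the submitters' processing notes. The deposited scanner files hold background-subtracted intensity on a linear scale, and the deposited value table holds a ratio of that intensity to the array's 75th percentile, as read from the values. Its column medians were 0.1005, 0.1035 and 0.0962 in corn oil and 0.0956, 0.0972 and 0.0953 in TCEP.

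Values are log2 of the processed intensity minus each array's 75th percentile over 61657 non-control probes. Control spots were left out, 64 outlier spots set to missing and saturated spots kept. A probe was kept when well above background on all arrays of a group. Symbols came from RefSeq (GRCr8) by unversioned accession, matching 27460 probes, and 34197 kept the name of the array design. Its older build gives no coordinates here.

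The group difference was fitted by limma 3.58.1 under R 4.3.3 (lmFit, then eBayes). Its two-sided p-values were adjusted over 27642 genes by Benjamini-Hochberg, and the fit was checked on simulated data. Replicates were taken as animals, since the labels speak of 3 animals per group. The members and the lists were chosen with earlier results of these data known. Named list genes are the 2 lowest and 2 highest signed differences of each list among genes above background on all 6 arrays. Ccn4 and Ccn5, above background on 5 arrays, are named as the only other CCN genes measured. Likeness took the 8 highest correlations among genes with a symbol. Genes named because their groups lay apart, the limits of 0.4, 0.5 and 1 log2 units and the promoter motifs were chosen after values were seen.

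Alternatives were quantile normalization, median centring, normexp with an offset of 50 on the median signal (no mean signal column was used) followed by quantile normalization, the deposited table, keeping dim probes, keeping only probes above background on all 6 arrays, averaging a gene's probes, a trended and robust eBayes, the slide fitted as random block, a replicate block, retained outlier spots, and each array left out in turn. The scan of corn oil replicate 2 came 23 days later than the other 5, so leaving it out is the fit within the first scan day.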

Additional observations from a re-analysis of the deposited data

How the results depend on the processing

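In each of the 17 alternatives 0 genes and 0 list genes passed the adjusted threshold. Their smallest adjusted p was between 0.06 (corn oil replicate 3 left out) and 0.743 (TCEP replicate 3 left out). The number of members lower with groups apart was 0, but 1 with the mean over probes (Ccn1), and 0 to 2 with 1 array left out. Of all genes, 7.06% lay apart lower in the main fit and 7.23% with the mean over probes. With 1 array left out that share was 10.3% (without TCEP replicate 1) to 15.2% (without corn oil replicate 3). The number of members higher with groups apart was 0, but 1 (Myc) without TCEP replicate 3. For that count no share of all genes is given, and in that alternative 10.8% of all genes lay apart lower. The median log2 difference of the members lay between -0.44 and -0.090 when single arrays were dropped, the higher value without corn oil replicate 1. Of the members, Ccn2 changed sign in 2 alternatives, Dusp6 and Errfi1 in 1 each and the other 7 in none. TCEP replicate 3 was the lowest array in 8 members in each alternative that held it, except 7 with the mean over probes. Same-numbered arrays did not deviate together (correlations of -0.05, -0.16 and -0.02). These correlations cannot show whether the numbers pair the animals by cage or handling. With the replicate block 0 genes passed, 1901 had an unadjusted p under 0.05 (2543 without it) and the median of the members was -0.41. The dim Spry2, Spry4 and Ccn2 probes and the 3 arrays per group limit what can be read from small differences.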

Other observations

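Some immediate early genes outside the 10 members had the same highest 3 livers as Dusp5 and Dusp6. The highest 3 livers were corn oil replicates 2 and 3 and TCEP replicate 3 in 5 of the 24 measured, beside 4.41% of all genes. Ier5 read 1.54, 3.23 and 2.03 in corn oil and 1.62, 1.34 and 2.58 in TCEP. Klf10, a zinc finger gene induced by TGF-beta, read 1.00, 1.98 and 1.83 in corn oil and 0.52, 0.68 and 1.65 in TCEP. Ier5 and Klf10 were singled out after their values were seen. The macrophage receptor Marco, with the same highest livers, read -1.35, 0.53 and 1.93 in corn oil and -0.02, 0.17 and 1.09 in TCEP.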
